A study of Mus musculus with 6 samples.

Results

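The PRAME-like genes described here are 8 mouse genes, Pramef25, Pramef6, Pramef8, Pramef12, Pramef17, Pramel5, Pramel6 and Pramel7. They were taken by their gene symbols from a table of raw read counts that holds 41388 genes, in 6 poly(A)-selected, strand-specific RNA-seq libraries of mouse induced pluripotent stem cells (iPSCs). The libraries came from 3 lines of genotype miR-34a-/-, which lack the microRNA miR-34a (hereafter knockout), and 3 wild-type lines, all C57BL/6. Fibroblasts of E13.5 littermate embryos had been reprogrammed with retroviruses carrying Oct4, Sox2 and Klf4, vectors that all 6 lines therefore share. Each line was grown from 1 picked colony on irradiated fibroblast feeders, and no age, passage or treatment separated the groups in the labels. The question the design addresses for these genes is whether their mRNA differs between knockout and wild-type pluripotent cells. No source used here says which lines share an embryo, so p-values measure the spread between these lines.

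PRAME is a leucine-rich repeat protein first known as a tumour antigen of the cancer-testis class, and rodents carry a greatly expanded set of related genes, many of them in tandem copies. Members are known mainly from the germ line, oocytes and the earliest embryo, and several PRAME family proteins act as substrate receptors of Cullin 2 ubiquitin ligases. Pramel7 is known from the inner cell mass, where it targets the DNA methylation cofactor UHRF1, and Pramel6 and Pramel7 are known to support pluripotent cells downstream of LIF and STAT3.

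In knockout lines, 5 of the 8 genes were called higher, none was lower, and Pramef12 was not called. Of all tested genes 26.5% were called higher and 24.0% lower. Of the 5, 4 passed the filter on low counts through the knockout lines alone, and among all tested genes that were low in every wild-type library 95.3% were called higher. Pramef17 and Pramel5 were too low for the test. Pramef8 and Pramef12 were expressed in every line of both genotypes. Pramef25, Pramef17 and Pramel5 had no read in any wild-type line, Pramef6 had 2, and Pramel6 and Pramel7 were low in wild-type lines and higher in knockout lines.

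The 8 genes lie at 2 places in the mm10 genome (GENCODE M21 coordinates). Pramel7 (ENSMUSG00000025839) is at chr2:87489087-87497093 and Pramel6 (ENSMUSG00000025838) is beside it at chr2:87506565-87510872. The other 6 lie in a cluster of PRAME family genes on chromosome 4. In order along it these are Pramef8 (ENSMUSG00000046862, chr4:143412426-143421091), Pramef6 (ENSMUSG00000078512, chr4:143894237-143900380), Pramef25 (ENSMUSG00000078511, chr4:143948580-143951016), Pramef17 (ENSMUSG00000078509, chr4:143991119-143994369), Pramel5 (ENSMUSG00000036749, chr4:144270633-144280488) and Pramef12 (ENSMUSG00000028591, chr4:144391674-144408464). RefSeq now lists Pramef8 as Pramel12, Pramef6 as Pramel11, Pramef25 as Pramel16, Pramef17 as Pramel14 and Pramef12 as Pramel13. The cluster spans 1.01 Mb and ends 5.66 Mb before Mir34a on the same chromosome.

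Promoter sequences are shown because the copies resemble each other there as well as in their coding parts. Each is the run of 250 bases before the RefSeq start (GRCm38.p6), read 5′ to 3′ on the gene's strand. Pramef6 (chr4:143900381-143900630, minus strand) is set beside Gm13078 (chr4:143719201-143719450, plus strand), a family gene that was also near 0 in wild-type lines. Their windows were identical at 217 of 246 aligned bases (88.2%), and capitals mark bases that differ from the partner or have no partner.
Gm13078: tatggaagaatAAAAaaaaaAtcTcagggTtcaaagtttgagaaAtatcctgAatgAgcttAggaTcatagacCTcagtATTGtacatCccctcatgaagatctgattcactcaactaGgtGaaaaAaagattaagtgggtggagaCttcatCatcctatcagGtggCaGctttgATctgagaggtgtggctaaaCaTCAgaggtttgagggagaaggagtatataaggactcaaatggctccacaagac
Pramef6: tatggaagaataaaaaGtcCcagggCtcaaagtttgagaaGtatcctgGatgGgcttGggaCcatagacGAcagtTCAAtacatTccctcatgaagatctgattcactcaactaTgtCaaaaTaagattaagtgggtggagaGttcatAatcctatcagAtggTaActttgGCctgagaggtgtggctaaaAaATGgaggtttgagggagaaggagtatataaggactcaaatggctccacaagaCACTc

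Pramel7 (chr2:87492419-87492668, minus strand) and Pramef17 (chr4:143994370-143994619, minus strand) are shown because they are close copies on different chromosomes. Their windows were identical at 203 of 242 aligned bases (83.9%), with capitals as above. Both genes had more reads in knockout than in wild-type lines. The Pramel7 window lies inside the GENCODE M21 gene, which starts farther upstream than the RefSeq gene.
Pramel7: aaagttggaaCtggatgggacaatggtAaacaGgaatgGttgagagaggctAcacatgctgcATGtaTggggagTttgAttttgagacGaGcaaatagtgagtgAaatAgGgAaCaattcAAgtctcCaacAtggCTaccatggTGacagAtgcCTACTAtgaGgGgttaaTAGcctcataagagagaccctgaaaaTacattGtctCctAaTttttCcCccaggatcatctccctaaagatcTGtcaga
Pramef17: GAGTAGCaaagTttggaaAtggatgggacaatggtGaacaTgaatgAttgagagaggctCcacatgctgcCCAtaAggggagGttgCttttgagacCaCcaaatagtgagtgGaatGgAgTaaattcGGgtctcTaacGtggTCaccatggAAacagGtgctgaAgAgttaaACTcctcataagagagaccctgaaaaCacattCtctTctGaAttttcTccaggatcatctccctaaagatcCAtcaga

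The last pair, with no capitals, shows the windows of a gene with no wild-type read and of the gene with like levels in both genotypes. These are Pramef25 (chr4:143951017-143951266, minus strand) and Pramef12 (chr4:144408465-144408714, minus strand). The best match of the Pramef25 window among the family windows, that of Gm12794, reached 68.8% identity.
Pramef25: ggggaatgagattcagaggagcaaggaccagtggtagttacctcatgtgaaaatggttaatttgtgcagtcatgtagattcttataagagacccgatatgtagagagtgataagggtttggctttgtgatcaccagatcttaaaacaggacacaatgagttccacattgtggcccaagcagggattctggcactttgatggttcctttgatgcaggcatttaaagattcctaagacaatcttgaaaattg
Pramef12: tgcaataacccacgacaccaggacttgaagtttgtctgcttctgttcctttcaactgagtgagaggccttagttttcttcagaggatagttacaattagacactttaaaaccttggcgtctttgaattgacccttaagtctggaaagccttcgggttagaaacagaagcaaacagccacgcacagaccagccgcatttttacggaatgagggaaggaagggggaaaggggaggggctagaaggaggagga

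Both strands of the 33 PRAME family windows in the RefSeq table were searched for 4 short motifs. Pramef8 had no window among them. The STAT form TTCNNNGAA was in none of the 33, against 7.01% of 32817 promoter windows of the same length. The ESRRB form TCAAGGTCA (0.387% of all windows) and a DUX core motif (0.0213%) were also in none. The TATA form TATAAA was in 2 of the 12 family windows of genes called higher and in 7 of the other 21, against 12.4% of all windows. No motif searched contains another, and a missing match says only that these letters are not in this window.

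Library depth ranged from 8432597 to 29654855 counts, of which 5.4% to 6.16% fell in repeat families, and gene counts alone ranged from 7935323 to 27933272. Levels are given in CPM, the count scaled by the total gene count of the library and its TMM factor (0.9877 to 1.0105). A single read was worth 0.125 CPM in the shallowest library, and 3 reads over a whole group, the floor used for folds below, were worth 0.0626 CPM in wild-type and 0.0537 CPM in knockout. In bulk libraries fewer cells with a transcript and less transcript per cell cannot be told apart. Knockout was compared with wild-type by edgeR's quasi-likelihood test over 14717 genes past a filter on low counts, and calls were made at 0.05 after Benjamini-Hochberg adjustment. Of these genes 50.5% were called, 26.5% higher and 24.0% lower in knockout. Mir34a had 1 read in a knockout library and 2 in a wild-type library, so the poly(A) counts do not check the labels.

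Over all libraries together, Pramef8 was the PRAME-like gene with the most reads, though Pramef12 had more in every wild-type line. Pramef8 had 28.2, 27.6 and 26.2 CPM in knockout lines 1 to 3 and 21.1, 16.9 and 17.9 CPM in wild-type lines 1 to 3. Every knockout line was above every wild-type line. The means were 27.3 ± 1.0 CPM (SD, n = 3) and 18.6 ± 2.21 CPM (SD, n = 3), a log2 fold change of 0.53 (SE 0.0868; adjusted p = 4.8e-05 by edgeR), or 1.44-fold. Leaving out any 1 library gave values from 0.48 to 0.65.

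Pramef12, known for a role in spermatogonial stem cells, lies at the far end of the same cluster and was close between genotypes. It had 20.3, 19.5 and 21.9 CPM in knockout lines and 21.5, 19.6 and 21.8 CPM in wild-type lines. The 2 sets of lines overlapped, with means of 20.6 ± 1.22 and 21.0 ± 1.17 CPM (SD, n = 3 each). The log2 fold change was -0.06 (SE 0.0826, adjusted p = 0.61 by edgeR), and it stayed between -0.09 and -0.01 without any 1 library. The ratio of Pramef8 reads to Pramef12 reads, which needs no scaling between libraries, was 1.39, 1.41 and 1.2 in knockout lines and 0.981, 0.86 and 0.822 in wild-type lines. These ratios did not overlap, with means of 1.33 ± 0.119 and 0.888 ± 0.0828 (SD, n = 3 each). Their exact two-sided permutation p was 0.1, the smallest that 3 lines against 3 allow.

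Pramef25 was at 0 in wild-type iPSCs. It had 128, 161 and 48 reads in knockout lines 1 to 3 and no read in any wild-type line. In CPM the knockout lines had 6.48, 5.75 and 5.88, a mean of 6.04 ± 0.391 (SD, n = 3). Against the wild-type floor of 3 reads over the group, Pramef25 was at least 96.3-fold higher in knockout (adjusted p = 4.1e-11 by edgeR). The 3 knockout lines were close to each other: their coefficient of variation was 6.47%, where counting error alone gives 10.7%.

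Pramef6 had the same shape at a lower level. It had 67, 83 and 26 reads in knockout lines, or 3.39, 2.96 and 3.18 CPM, a mean of 3.18 ± 0.214 CPM (SD, n = 3). Wild-type line 1 had 2 reads and the other wild-type lines none. The ratio of summed depth-scaled reads was 75.5, with an exact 95% counting interval from 20.6 to 628, and the edgeR adjusted p was 1.8e-09. Without wild-type line 1, which held both wild-type reads, Pramef6 was at 0 in wild-type as well, and the fitted log2 fold change moved from 6.02 to 8.65.

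Pramef17 and Pramel5 lay between or beside these genes in the cluster and had few reads. Pramef17 had 9, 18 and 7 reads in knockout lines, or 0.456, 0.643 and 0.857 CPM, and none in wild-type lines, at least 9.72-fold higher. Pramel5 had 1, 5 and 1 reads in knockout lines and none in wild-type lines, at least 2.0-fold higher. Neither passed the filter on low counts. Fitted with no filter beyond 1 read, edgeR's adjusted p was 5e-08 for Pramef17 and 0.039 for Pramel5, while DESeq2 gave 0.00028 for Pramef17 and none for Pramel5. That edgeR fit covered 25175 genes, so its p-values cannot be set beside those of the main test. With no wild-type read, neither gene could be called lower.

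Pramel7 was low in wild-type lines and higher in all 3 knockout lines. It had 1.47, 1.39 and 1.35 CPM in knockout lines against 0.205, 0.25 and 0.257 CPM in wild-type lines, where these levels rest on 5, 2 and 4 reads. The groups did not overlap, with means of 1.4 ± 0.0613 and 0.237 ± 0.0285 CPM (SD, n = 3 each). The log2 fold change was 2.58 (SE 0.356, adjusted p = 6.8e-06 by edgeR), and it ranged from 2.43 to 2.66 without any 1 library.

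Pramel6, its neighbour on chromosome 2, also rose but varied more. It had 1.52, 1.11 and 0.735 CPM in knockout lines and 0.328, 0.125 and 0.322 CPM in wild-type lines, from 8, 1 and 5 reads. Every knockout line was above every wild-type line, with means of 1.12 ± 0.392 and 0.258 ± 0.115 CPM (SD, n = 3 each). The log2 fold change was 2.01 (SE 0.392, adjusted p = 0.00029 by edgeR), with values from 1.77 to 2.19 without any 1 library. The coefficient of variation among knockout lines was 35.0% for Pramel6 (24.1% from counting error alone) and 4.37% for Pramel7 (22.2%). Under a stricter filter of 1 CPM in 3 libraries Pramel6 was not tested.

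**Figure D1:**
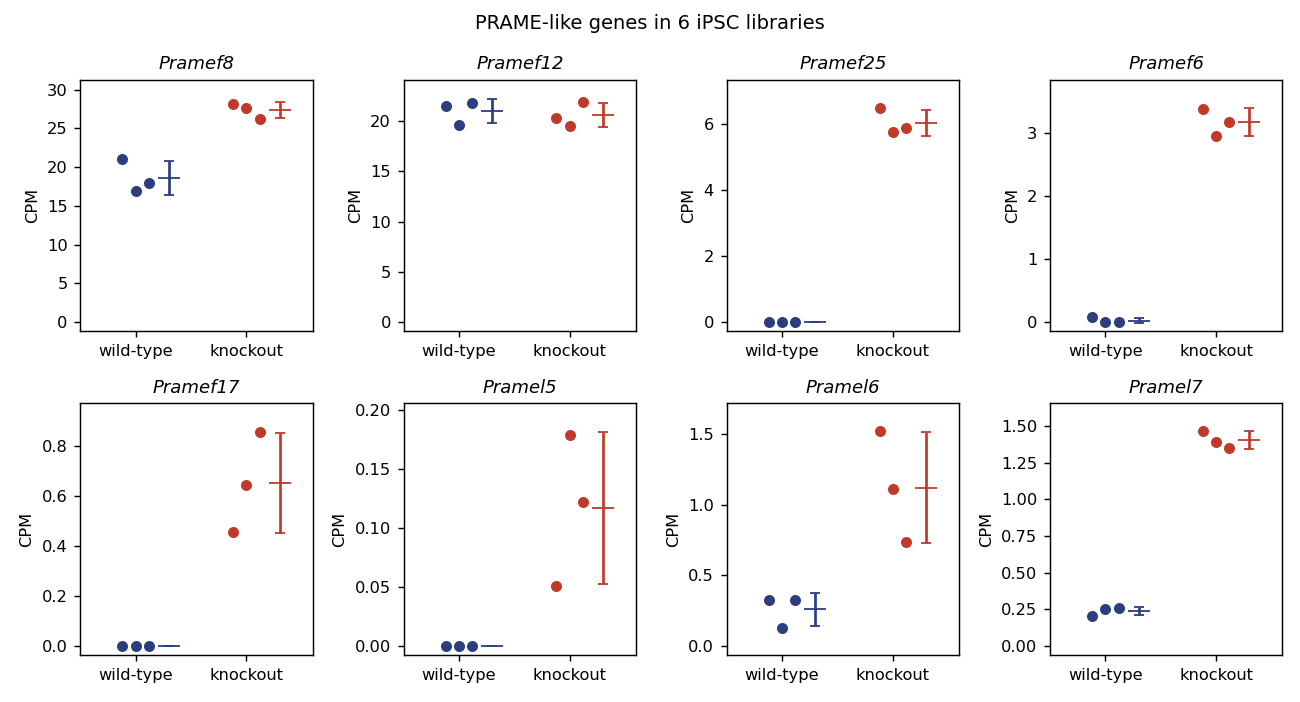
Level of each of the 8 PRAME-like genes in CPM per library, with points for the 3 knockout and 3 wild-type lines and a horizontal line with whiskers for each group mean and SD. Pramef8 and Pramef12 stand between 16.9 and 28.2 CPM in every line of both genotypes, and Pramef25 has a mean of 6.04 CPM in knockout lines and is at 0 in every wild-type line.

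Of the 8 genes, then, 6 passed the filter and 5 of these were called higher, beside 26.5% of all tested genes, and none was called lower, beside 24.0%. Of the 6, 4 genes, Pramef25, Pramef6, Pramel6 and Pramel7, passed the filter through the knockout lines alone and so had to differ. Among all tested genes that were under the filter level of 0.564 CPM in every wild-type library, 347 of 364 (95.3%) were called higher, and the calls of these 4 genes are to be read against that share. Pramef8 and Pramef12 are the members whose test did not depend on that. The median log2 fold change of the 6 tested genes was 2.3, also with genes of 3 or fewer wild-type reads set at 3 reads, beside 0.01 over all tested genes. With 4 of the 6 past the filter through the knockout lines alone, the filter fixed the sign of this median. Pramef8 and Pramef12, free of that, had log2 fold changes of 0.53 and -0.06. For 5 of the 6 every knockout line was above every wild-type line. Genotypes did not overlap, in either direction, for 56.0% of all tested genes, with knockout above for 29.2%, and for 100% of the 364 genes under the filter level in wild-type. Summed over the 8 genes, the level was 59.2 to 61.8 CPM in knockout lines and 36.9 to 43.2 CPM in wild-type lines.

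Levels of different genes were compared per kilobase of annotated exon. On the CPM per kb scale the knockout order was Pramef12 (8.0 ± 0.475), Pramef8 (6.54 ± 0.24), Pramef25 (3.59 ± 0.232), Pramef6 (1.52 ± 0.103), Pramel7 (0.657 ± 0.0287), Pramel6 (0.538 ± 0.188), Pramef17 and Pramel5 (SD, n = 3 each). Pramel6 could not be put in order with Pramel7 or Pramef17, since its lines overlapped those of both, whereas every knockout line of Pramel7 was above every one of Pramef17. In wild-type lines Pramef12 (8.15 ± 0.455) was above Pramef8 (4.46 ± 0.528), both in CPM per kb, and Pramel6 and Pramel7 followed near 0.12 with overlapping lines. Pramef6 came after these, and the other 3 were at 0. Pramef25, Pramef6, Pramef17 and Pramel5 share sequence with other genes, as described next. Their places in both orders, also that of Pramef17 below Pramel7, are therefore uncertain.

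The near-identity of the copies limits how far reads can be given to 1 gene. All 50-base stretches of Pramef8, Pramef12 and Pramel6 transcripts were found in no other annotated gene, and 98.6% of those of Pramel7. The share was 74.1% for Pramel5, 66.3% for Pramef6, 36.5% for Pramef25 and 26.5% for Pramef17. How reads that map to several places were counted is not stated in any source used here, so the levels of the last 4 are uncertain. Pramef17 shared 73.5% of its stretches with Gm13128, which had 25, 31 and 6 reads in knockout lines and 2, 0 and 1 in wild-type lines. Pramef25 shared 34.1% with each of Gm13040, Gm13043 and Gm13057, which had at most 10 reads in any library. It shared 29.7% with BC080695, a gene inside the cluster with 190, 254 and 86 reads in knockout lines and 1, 0 and 1 in wild-type lines. It also shared 27.8% with Gm13101, 23.7% with Gm13119 and 18.7% with Gm13106. Of these, Gm13119 had the most reads, 161, 226 and 75 in knockout lines. Pramef6 shared 29.6% with Gm13083 and 11.1% with Gm13078. Each of these relatives had at most 3 wild-type reads in all.

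Identity over whole coding parts was compared between the 8 genes. Over lengths of 1389 to 1500 bases, Pramef6 and Pramel5 were 86.9% identical, Pramef17 and Pramel7 80.9%, and Pramef25 and Pramef8 74.9%. The lowest identity was 59.7%, for Pramef12 with Pramef17 and for Pramel6 with its chromosome 2 neighbour Pramel7. Closeness in sequence and in level did not go together in each pair: Pramef25 was at 0 in wild-type lines and Pramef8, its closest member by coding sequence, was at 18.6 CPM. The ratio of Pramef25 reads to Pramef6 reads was steady in knockout lines, at 1.91, 1.94 and 1.85.

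**Figure D2:**
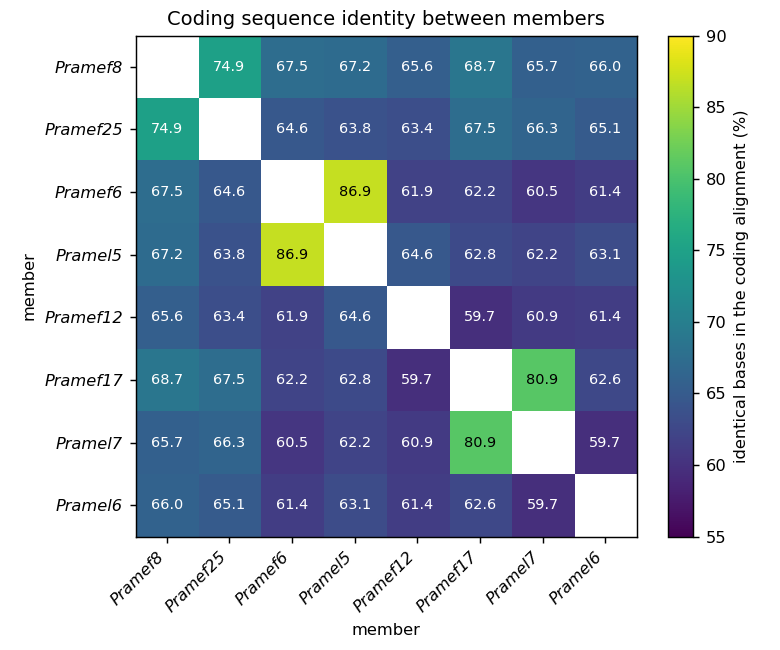
Identity in percent between the coding sequences of each pair of the 8 PRAME-like genes, from pairwise alignment. The closest pairs are Pramef6 with Pramel5 (86.9%) and Pramef17 with Pramel7 (80.9%), and the lowest value is 59.7%.

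Most other genes of the PRAME family had few or no reads in wild-type lines. The table holds 41 rows of the family, 40 matched to RefSeq entries and Pramef12os, annotated as antisense, taken by its symbol. RefSeq lists 53 such entries, so sums over the family cover only those with a row. Of the 41 rows, 33 are not among the 8 genes. Of these 33, 16 had no read in any library and 24 had none in any wild-type library. The 8 that passed the filter were all called higher in knockout, with a median log2 fold change of 6.66, or 6.21 with genes of 3 or fewer wild-type reads set at 3 reads. All but Pramel1 passed through the knockout lines alone, which fixes their direction, and they are to be read against the 95.3% called higher among such genes. For Pramel1 the share to set beside it is the 26.5% of all tested genes.

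A430089I19Rik, on chromosome 5, was the highest of these in knockout lines, with 231, 295 and 105 reads there and 1, 0 and 4 in wild-type lines. Its means were 11.7 ± 1.16 and 0.0995 ± 0.138 CPM (SD, n = 3 each), a log2 fold change of 6.69 (SE 0.308, adjusted p = 1.6e-12 by edgeR) that became 8.23 without wild-type line 3. It had only 2.9% of its 50-base stretches to itself, and its promoter window was 98.4% identical to that of Gm7978, which had no read in any library. Gm7978 shared all of its stretches with other genes (0.0% to itself), so its lack of reads does not show a lack of transcript. Pramel1, in contrast, was expressed in both genotypes, at 3.19 ± 0.247 CPM in knockout and 1.53 ± 0.177 CPM in wild-type lines (SD, n = 3 each). Its log2 fold change was 1.0 (SE 0.199, adjusted p = 0.00036 by edgeR).

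Gm13078, the promoter partner of Pramef6 shown above, had 220, 308 and 84 reads in knockout lines and 1, 2 and 0 in wild-type lines, a ratio of 175 (exact 95% counting interval 59.6 to 851). Gm13119 had 161, 226 and 75 reads against 2, 0 and 0, a ratio of 198 (54.5 to 1640). Gm12794 had 123, 206 and 57 reads against 3, 0 and 0, a ratio of 110 (37.5 to 537). Gm13083 had 71, 87 and 27 reads and none in wild-type lines, at least 52.9-fold higher. These genes share the pattern of Pramef25 and Pramef6, with knockout levels from 3.34 ± 0.245 CPM for Gm13083 to 10.8 ± 0.458 CPM for Gm13078 (SD, n = 3 each). Gm13119 shares 50-base stretches with Pramef25, and Gm13083 and Gm13078 with Pramef6, so their reads may not be fully separate. Wild-type line 1 held every wild-type read of Gm13119 and Gm12794, and without it their fitted log2 fold changes moved from 7.42 to 10.05 and from 6.63 to 9.77. Without wild-type line 2 that of Gm13078 moved from 7.28 to 8.43.

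**Figure D3:**
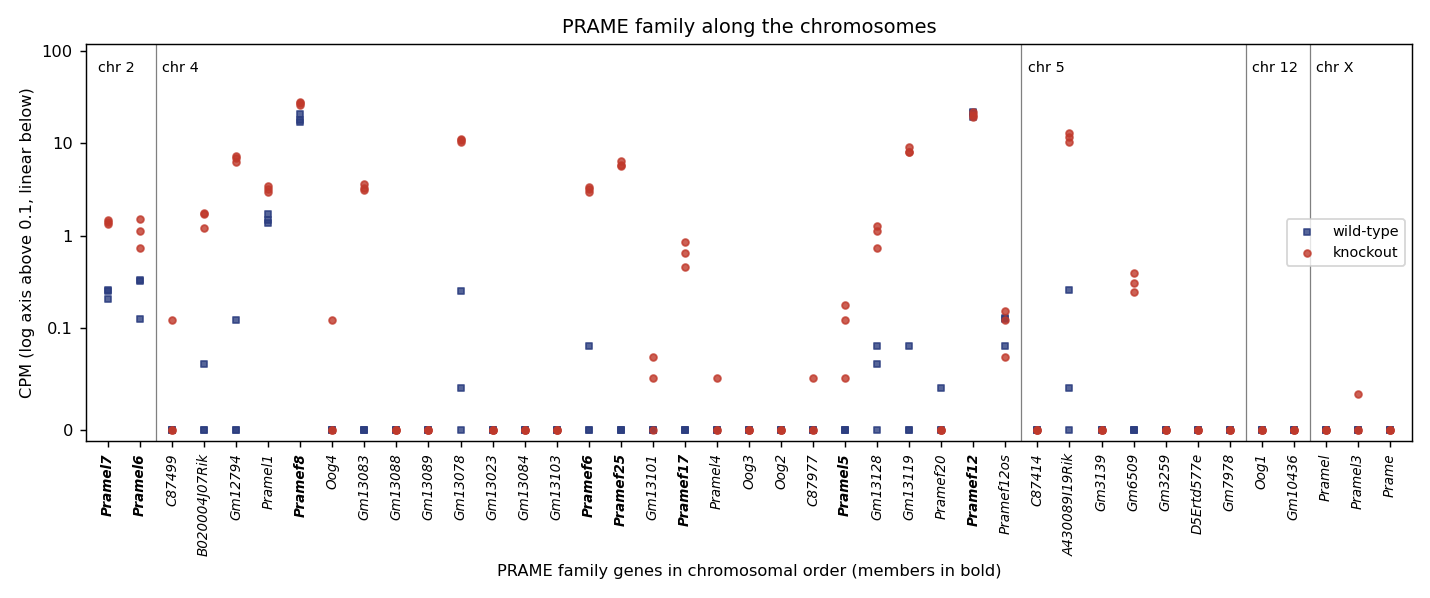
Levels of the 41 PRAME family rows in chromosomal order, in CPM on an axis that is log above 0.1 and linear below, with each knockout library as a circle and each wild-type library as a square. Pramef8, Pramef12 and Pramel1 have reads in every wild-type library at levels of 1 CPM or more, while genes such as Gm13078 and Pramef25 stand at 3 CPM or more in knockout libraries and at or near 0 in wild-type libraries.

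The family rows lie at several loci, and summed levels were compared locus by locus. The main chromosome 4 cluster holds 24 rows, of which 9 were tested, 8 were higher (26.5% of all tested genes were), and 7 had no read. Of these 9, 6 passed the filter through the knockout lines alone, as did every tested gene of the other loci, so the direction of those calls was fixed by the filter. Its summed level was 83.3 to 86.2 CPM in knockout and 38.2 to 44.7 CPM in wild-type lines. At 3 rows before it on chromosome 4 the sum was 7.95 to 9.11 CPM against 0 to 0.123 CPM. The chromosome 2 pair summed to 2.08 to 2.99 CPM against 0.375 to 0.579 CPM, and 7 rows on chromosome 5 to 10.9 to 13.1 CPM against 0 to 0.257 CPM. On chromosome 12 neither of the 2 rows had a read, and none of 3 on chromosome X was tested. Of 7 tested genes outside the family that flank the main cluster within 1 Mb, 4 were higher and 1 was lower, beside 26.5% and 24.0% of all tested genes, with a median log2 fold change of 0.29. Inside the cluster 1 gene outside the 41 rows was tested, BC080695. It was higher (log2 fold change 7.62) and passed the filter through the knockout lines alone, where 95.3% of genes were so called.

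Summed over all 41 rows, PRAME family transcripts came to 106 to 109 CPM in knockout lines and 38.6 to 45.4 CPM in wild-type lines, which did not overlap. Pramef8 and Pramef12 together made up 93.8% to 94.5% of that sum in wild-type lines and 44.2% to 44.5% in knockout lines. The 33 other rows alone came to 46.7 to 48.6 CPM and 1.75 to 2.21 CPM.

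**Figure D4:**
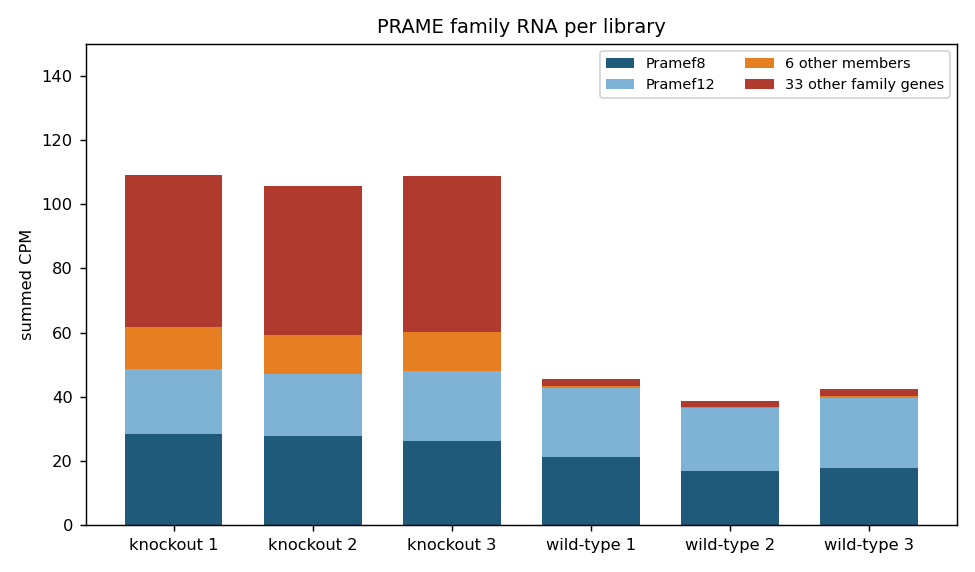
Summed CPM of the PRAME family in each of the 6 libraries, with stacked bars divided into Pramef8, Pramef12, the other members and the rest of the family. The total is 106 to 109 CPM in knockout lines and 38.6 to 45.4 CPM in wild-type lines, where Pramef8 and Pramef12 fill nearly the whole bar.

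Genes of the known partners of PRAME proteins were examined next: the Cullin 2 ligase and the DNA methylation machinery that Pramel7 acts on through UHRF1. Of 9 tested, 2 were higher and 4 lower (26.5% and 24.0% of all tested genes), with a median log2 fold change of -0.05. Dnmt3b, a de novo DNA methyltransferase, fell from 520 ± 26.1 to 167 ± 12 CPM (SD, n = 3 each), a log2 fold change of -1.64 (adjusted p = 7.3e-14 by edgeR). Dnmt1 (-0.05, adjusted p = 0.42), Dnmt3a (-0.05, adjusted p = 0.54) and Dnmt3l (-0.03, adjusted p = 0.71) were not called. Cul2, the ligase scaffold, fell from 46.7 ± 3.75 to 35.3 ± 1.4 CPM (-0.41, adjusted p = 9.9e-05). Of the adaptor pair, Elob rose (0.28, adjusted p = 0.00013) and Eloc fell (-0.41, adjusted p = 0.0013). Uhrf1, named after its value was seen because Pramel7 acts on it, rose by 0.16 on the log2 scale (adjusted p = 0.021 by edgeR), with adjusted p from 0.0031 to 0.13 over the other settings. Its call was lost without knockout line 1 (adjusted p = 0.13), wild-type line 2 (0.1) or wild-type line 3 (0.062), and with no filter on low counts (0.051).

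Among genes of LIF and STAT3 signalling, 5 of 10 tested were higher and 4 lower, beside 26.5% and 24.0% of all tested genes, with a median log2 fold change of 0.08. Socs3, the feedback inhibitor that STAT3 induces, fell from 228 ± 14.1 to 138 ± 7.04 CPM (SD, n = 3 each), a log2 fold change of -0.72 (adjusted p = 4.1e-09 by edgeR). Il6st, the shared receptor chain gp130, fell (-0.33, adjusted p = 5.8e-05) and Jak1, the kinase bound to it, rose (0.30, adjusted p = 0.00024). Klf4 rose (0.51, adjusted p = 3.5e-07), but the reprogramming vectors also carried it, and reads from vector and gene cannot be told apart here. Neither list moved in 1 direction beside the PRAME-like genes.

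The genes whose levels followed those of Pramef25 most closely over the 6 libraries were AA623943, Gm8994 and Gm4340, each with Pearson r = 0.9999 of log2 CPM and no wild-type read. For Pramel7 they were Yif1a (r = 0.9993), Glp1r and Bola1 (r = 0.9992 each). These correlations describe 6 libraries that fall into 2 genotypes, and 399 and 342 tested genes, respectively, had r over 0.99.

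Markers of cell types that such cultures could hold were compared as well, and their calls are to be read beside the 26.5% of all tested genes called higher and the 24.0% called lower. For markers of 2-cell embryos, where PRAME-like genes are known to be active, 9 of 10 were in the table. Their summed level was 112 to 115 CPM in knockout lines and 0.901 to 1.25 CPM in wild-type lines. Of the 8 tested, all were called higher, but each had passed the filter through the knockout lines alone, where 95.3% of genes were so called. Pluripotency markers summed to 4850 to 5080 CPM against 3940 to 4010 CPM (6 of 8 higher and 1 lower). That sum includes Pou5f1, which encodes Oct4, and Sox2, both also carried by the vectors. Oocyte and germ cell markers, the other known source of PRAME family transcripts, had overlapping sums, at 26.4 to 30.1 CPM against 23.8 to 27.7 CPM. There 2 of 4 tested were higher, Dazl (mean 5.1 against 2.36 CPM) and Sycp3 (4.32 against 2.17 CPM). Of the others 1 was lower, Zp3 (4.22 against 6.78 CPM), and Ddx4 was not called (13.0 against 13.4 CPM). The oocyte genes Zp1, Zp2, Gdf9, Bmp15, Nobox and Figla did not pass the filter. Primitive endoderm markers summed to 29.1 to 30.9 CPM against 9.72 to 13.6 CPM (6 of 6 higher). Of these, Sox17 had passed the filter through the knockout lines alone. Fibroblast markers, which feeders could bring, were at 314 to 388 CPM against 441 to 616 CPM (1 of 9 tested higher and 6 lower). Trophoblast markers were at 101 to 104 CPM against 178 to 196 CPM, with 3 of 5 tested lower. No marker in these lists was at 0 in every library. What part, if any, the cells behind these markers had in the levels of the PRAME-like genes was not tested.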

How the data were processed

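Raw counts per gene, as the authors deposited them, were used for 6 poly(A) libraries of mouse iPSCs, 3 of each genotype. Reads had been aligned to mm10 and counted; TopHat2 2.0.11 and featureCounts 1.4.5 are listed in the submitters' processing notes. Whether counting used strand, and how it treated multiply mapped reads, is not stated in any source used here. The 6 columns of a repeat run carry names found in no label and were left out. The 902 repeat-family rows stayed out of library sizes and tests.

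Symbols came from GENCODE M21 (40254 of 41388 identifiers matched). CPM values were scaled by total gene counts times TMM factors. Genes were tested with edgeR 4.0.16 (filterByExpr, min.count 10, TMM, robust quasi-likelihood F test, two-sided, Benjamini-Hochberg) in R 4.3.3, after the fit was tested on simulated data. DESeq2 1.42.0, other scalings and filters, a replicate term and leaving out each library were alternatives. Count-ratio intervals are exact (Clopper-Pearson, 95%), floors are 3 counts per group, and neither covers more than counting error. Libraries of 1 genotype differed beyond sampling noise in each pair (chi-square per degree of freedom 2.25 to 20.01).

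Members and lists were chosen with earlier results of these data known. Named genes were all 8 members, the 6 other family genes of highest mean CPM, the 4 of smallest p in the partner and the LIF and STAT3 lists, and the 3 most correlated genes for Pramef25 and Pramel7. In the partner list, Uhrf1 and the genes not called were named in addition. Promoters are RefSeq's (GRCm38.p6).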

Additional observations from a re-analysis of the deposited data

How the results depend on the processing

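No result reversed under the alternatives run. The number of PRAME-like genes called higher was 5 of 6 tested in the first fit, 6 with DESeq2, 7 with no filter beyond 1 read, 4 with a filter of 1 CPM in 3 libraries, and 5 to 6 without any 1 library. None was called lower under any of these. The partner genes called higher numbered 2, but 1 with no filter beyond 1 read and 1 to 2 without any 1 library. The term for the replicate number (the replicate block) gave 5 PRAME-like genes called higher and changed no member's call. Same-numbered lines deviated together with correlations of 0.088, -0.02 and 0.11, and differently numbered lines with correlations from -0.116 to 0.063. Not every line was most like its own number. These weak values cannot tell whether lines of the same number share more than the number. Over all genes the block moved the calls from 3904 higher and 3529 lower to 4054 and 3779. DESeq2 gave 3071 higher and 2847 lower. The call of Glp1r was lost with DESeq2 (log2 fold change 0.88, adjusted p = 0.076, against 0.029 or less under the other settings). Counting repeat families in the library total lowered the CPM of every PRAME-like gene that had reads. The shift exceeded the SD between lines for Pramef8 in knockout lines (25.7 CPM), Pramef12 in wild-type lines (19.7 CPM) and Pramel7 in knockout lines (1.32 CPM). Depth limits the wild-type levels of every PRAME-like gene but Pramef8 and Pramef12, since these rest on 0 to 8 reads a line.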
